A study of Mus musculus with 53 samples.

Results

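The genes of the Nodal pathway described here are Nodal, Lefty1, Lefty2, Tdgf1 and Smad7, 5 of the 21938 protein-coding genes examined. They were named as members of the pathway, with earlier results of these data known, and each was given a window that covers its gene body and 50 kb on each side in the mouse genome build mm10. Nodal (ENSMUSG00000037171) lies at chr10:61417972-61425338, Lefty1 (ENSMUSG00000038793) at chr1:180935022-180938400, Lefty2 (ENSMUSG00000066652) at chr1:180893108-180899103 and Smad7 (ENSMUSG00000025880) at chr18:75367529-75395935, all on the plus strand, and Tdgf1 (ENSMUSG00000032494) lies at chr9:110939603-110946158 on the minus strand. Every CUT&RUN peak that overlapped a window was assigned to it. CUT&RUN maps where a protein or a histone mark sits on chromatin by letting an antibody tether a nuclease, and a peak is an interval in which the released fragments pile up over the IgG control.

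Of 53 samples, 35 came with a peak list and 33 of those could be assigned to a population. All were made from the SGGC mouse embryonic stem cell (ESC) line, in which endogenous SOX2 is fused to GFP and endogenous GATA6 to mCherry, so the cells of every group carry both reporters. Naive ESCs were kept in 2iLIF (a MEK inhibitor, a GSK3 inhibitor and LIF) or NACL (Activin A, a GSK3 inhibitor and LIF). ESCs in KnockOut Serum Replacement medium (KOSR) were sorted into cells positive for SOX2 alone (SOX2+) and cells double positive for SOX2 and GATA6 (DP), and naive extra-embryonic endoderm (nEnd) was derived in RACL medium, which also contains Activin A. SOX2 was profiled in 2iLIF (2 libraries), NACL (2), SOX2+ (3) and DP (3), and these first 3 populations are called pluripotent below. GATA6 was profiled in DP (3) and nEnd (2). H3K27ac and H3K4me1, marks of active and of primed or active regulatory elements, were each profiled in 2iLIF (2), NACL (2), SOX2+ (2), DP (1) and nEnd (2). Each library comes from clone B9 or clone B12 of the reporter line. All KOSR libraries are clone B12, named here by replicate (A, A1 and B), and both nEnd H3K4me1 libraries are clone B9. For the NACL B12 SOX2 library 1 label field lists IgG beside SOX2 and no medium, and its antibody and title were followed. It enters every NACL SOX2 value and every count over the 7 pluripotent libraries. The label of DP GATA6 library A carries the ending sub02, whose meaning, and any bearing on its number of peaks, is not given.

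Nodal is a secreted TGF-beta family ligand that signals through Activin receptors and SMAD2/3, and it needs the membrane co-receptor Tdgf1 (Cripto) to do so. Lefty1 and Lefty2 are secreted antagonists that are themselves induced by the pathway, and FOXH1 is the DNA-binding partner that recruits SMAD2/3 to such targets. Smad7 is an intracellular inhibitory SMAD that is switched on by TGF-beta family signals and dampens them. In the early mouse embryo the pathway acts in the epiblast and in the extra-embryonic endoderm that surrounds it.

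Read depth is not known from peak lists, and the number of peaks differed widely. The 7 pluripotent SOX2 libraries held 8203 to 29623 peaks, the DP SOX2 libraries 4859 (A), 5320 (A1) and 1378 (B), the DP GATA6 libraries 8316 (A), 3821 (A1) and 1391 (B), and the nEnd GATA6 libraries 32510 (B12) and 24223 (B9). For H3K27ac the naive libraries held 210904 to 401853 peaks, SOX2+ 13514 (A) and 14722 (B) and DP 76260. The nEnd libraries held 20072 (B12) and 21394 (B9), and their H3K27ac peaks were wider (median 5453 and 4386 bp) than in naive media (1008 to 1452 bp). Because each library has its own signal scale, a peak is given by its peak percentile, the percentage of the library's own peaks with a lower maximum signal. A gene is given by its window percentile, the percentage of the 21938 gene windows whose strongest peak in that library is lower, with 0 where the window holds no peak. In the SOX2 and GATA6 libraries only 8.66 to 71.8% of windows hold a peak, so a single peak in a sparse library already gives a high window percentile. As a check of the labels, the median H3K27ac window percentile of 8 primitive endoderm genes was 95.7 and 88.4 in nEnd and 18.3 to 28.9 in the naive libraries, that of 6 pluripotency genes was 68.2 to 75.9 in nEnd and 86.6 to 95.6 in naive, SOX2+ and DP cells, and that of 5 fibroblast genes was at most 28.9 in any library. That of 6 trophoblast genes was 71.0 and 88.1 in nEnd and 27.6 to 57.1 in the other groups, so these genes also stood higher in nEnd, and their part in the nEnd values below was not tested. The DP library of H3K27ac stood at 45.4 for the primitive endoderm genes and the SOX2+ libraries at 0.

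SOX2 and GATA6 peaks of all libraries merged into 52 regions at the 4 loci (Lefty1 and Lefty2 lie 41.9 kb apart and share 64.1 kb of their windows). A region was kept when at least 2 libraries of 1 factor and population had a peak in it, which left 30 regions. Of these, 9 held SOX2 alone, 19 GATA6 alone and 2 both factors. SOX2 was present in all 7 pluripotent libraries at 5 regions: 3 at Nodal, 1 upstream of Lefty1 and 1 upstream of Tdgf1. GATA6 was present in both nEnd libraries at 19 regions: 3 at Nodal, 4 around the Lefty genes, 2 at Tdgf1 and 10 at Smad7. Nodal was therefore dense in SOX2 regions, with 2.79 per 100 kb, more than 99.4% of all gene windows held, and Smad7 was dense in GATA6 regions, with 7.79 per 100 kb, more than 99.3% of windows held. Smad7 had no SOX2 region common to all 7 libraries, as did 74.6% of windows. No SOX2 or GATA6 peak lay over the start of any of the 5 genes in any library, and in each of these libraries 0.0365 to 7.43% of all genes had one.

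**Figure D1:**
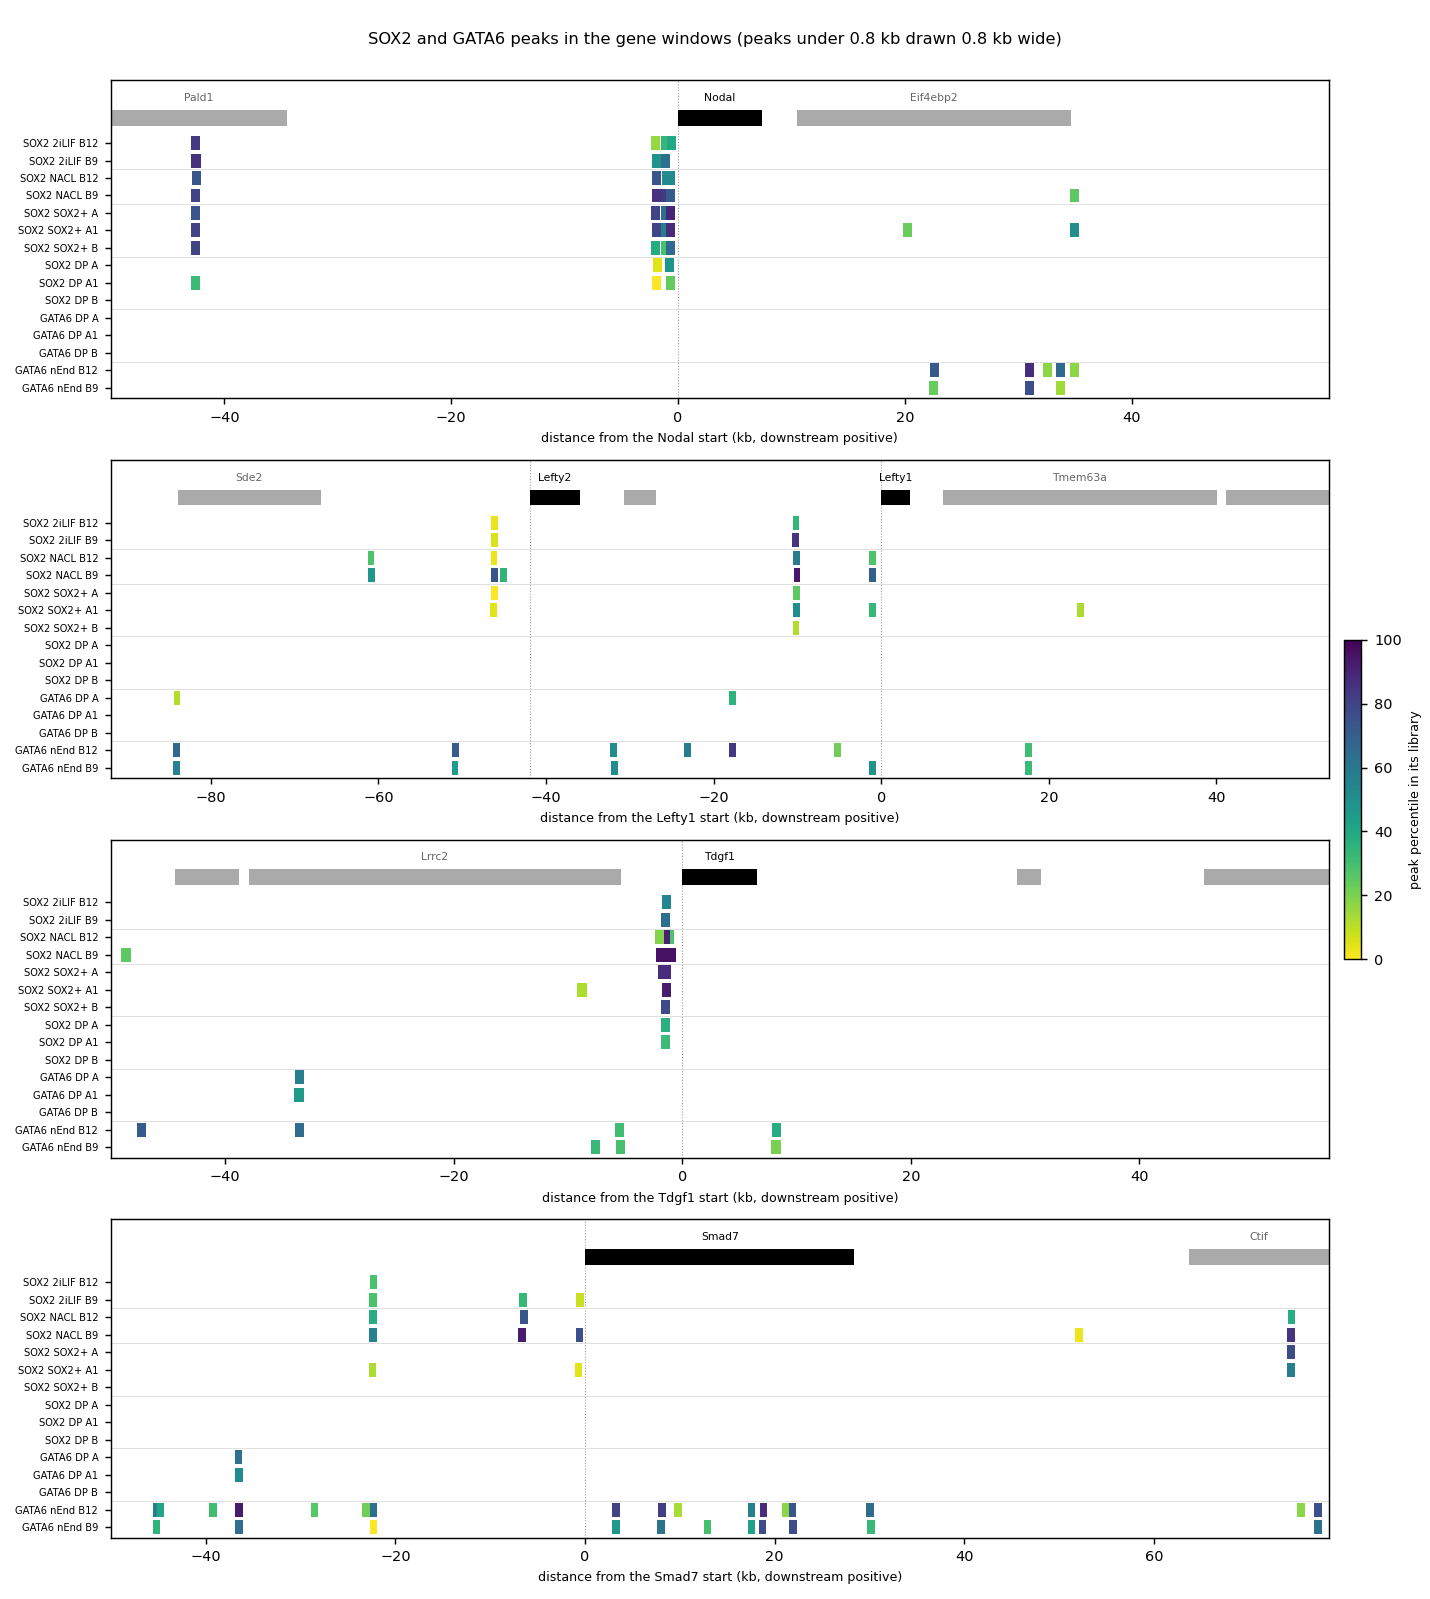
SOX2 and GATA6 peaks in the windows of the Nodal, Lefty, Tdgf1 and Smad7 loci, 1 library per line. The x axis is the distance from the gene's start in kb, positive in the direction of transcription, and the colour is the peak percentile (0 to 100). SOX2 peaks stack just upstream of Nodal and Tdgf1 in the 7 pluripotent libraries and in DP libraries A and A1, the SOX2 column at −10.1 kb of Lefty1 stops above the DP libraries, and GATA6 peaks of nEnd spread over Smad7.

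The sequences below are 300 bp windows centred on the median position of maximum signal, read from the RefSeq GRCm38.p6 assembly on the plus strand. They show the SOX2 site of Lefty1 and the SOX2 site of Lefty2, where the FOXH1 string lies, the SOX2 site at −1.11 kb of Nodal, which no DP library had, and the strongest GATA6 site at Nodal in nEnd. Capitals mark the strings searched for on both strands, which were CATTGT for SOX factors, ATGCAAAT for OCT factors, AGATAA for GATA factors, AATCCACA and AATACACA for FOXH1 and GTCTAGAC for SMADs. Some of these strings can share end letters, such as the TGT of CATTGT and TGTGGATT, but no copies overlapped in the sequences shown. On the minus strand CATTGT reads ACAATG and AATCCACA reads TGTGGATT.
Lefty1 SOX2 site at −10.1 kb, chr1:180924746-180925045: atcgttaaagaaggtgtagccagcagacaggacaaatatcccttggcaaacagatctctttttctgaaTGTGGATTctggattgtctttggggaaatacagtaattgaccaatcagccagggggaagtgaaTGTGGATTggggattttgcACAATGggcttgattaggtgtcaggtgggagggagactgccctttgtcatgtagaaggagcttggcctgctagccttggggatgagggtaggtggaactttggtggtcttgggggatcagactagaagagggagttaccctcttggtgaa
Lefty2 SOX2 site at −4.31 kb, chr1:180888647-180888946: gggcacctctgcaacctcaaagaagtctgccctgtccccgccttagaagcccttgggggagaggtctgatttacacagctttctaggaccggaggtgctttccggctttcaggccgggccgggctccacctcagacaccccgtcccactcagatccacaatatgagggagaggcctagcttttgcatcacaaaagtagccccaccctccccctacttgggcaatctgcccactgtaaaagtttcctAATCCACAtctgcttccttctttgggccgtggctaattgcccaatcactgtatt
Nodal SOX2 site at −1.11 kb, chr10:61416713-61417012: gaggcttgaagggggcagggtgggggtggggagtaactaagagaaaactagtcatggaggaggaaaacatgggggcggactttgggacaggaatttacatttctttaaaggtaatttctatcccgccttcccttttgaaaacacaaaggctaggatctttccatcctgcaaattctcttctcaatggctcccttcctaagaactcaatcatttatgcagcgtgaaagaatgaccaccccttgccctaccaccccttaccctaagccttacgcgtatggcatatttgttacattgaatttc
Nodal GATA6 site at 31.0 kb, chr10:61448780-61449079: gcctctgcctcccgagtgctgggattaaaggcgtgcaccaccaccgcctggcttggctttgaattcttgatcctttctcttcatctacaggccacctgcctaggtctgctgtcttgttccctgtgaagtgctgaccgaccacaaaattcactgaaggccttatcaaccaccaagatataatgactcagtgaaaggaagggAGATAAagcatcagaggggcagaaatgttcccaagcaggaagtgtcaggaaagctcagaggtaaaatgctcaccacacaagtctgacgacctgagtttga

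The Lefty1 site held 2 copies of the FOXH1 string AATCCACA, 78 and 15 bp before the position of maximum signal (−78 and −15), and 1 copy of the SOX string 3 bp after it. The Lefty2 site held 1 copy of AATCCACA 100 bp after its maximum. Among 20189 SOX2 regions of the genome kept by the same rule, 1.39% held AATCCACA and 38.5% held CATTGT in a window of this length. At the loci AATCCACA was found in 2 of 12 SOX2 sites, both at the Lefty genes, and in 0 of 20 GATA6 sites. CATTGT was found in 1 of the 12 SOX2 sites. The Nodal site at −1.11 kb held none of the 6 strings in this window. AGATAA was found in 6 of the 20 GATA6 sites against 63.7% of 20969 GATA6 regions, among them the Nodal site at 31.0 kb. These matches describe the letters in each window and were not tested as binding sites.

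Nodal, the ligand, had SOX2 at 3 regions in all 7 pluripotent libraries. The farthest, at −42.5 kb (chr10:61375248-61375676), lies in an intron of the neighbouring gene Pald1, and its peak percentile was 73.4 at the lowest, 79.9 at the median and 85.7 at the highest. The other regions lie between genes just upstream of Nodal, at −1.83 kb (chr10:61415627-61416652) and −0.90 kb. The region at −1.83 kb had a lowest, median and highest percentile of 15.7, 73.4 and 85.0, with 15.7 (B12) and 48.3 (B9) in 2iLIF and 73.4 (B12) and 85.0 (B9) in NACL, so both 2iLIF libraries lay below both NACL libraries there. The −0.90 kb region contains the site at −1.11 kb printed above and another at −0.61 kb. The site at −1.11 kb had a SOX2 peak in 7 of 7 pluripotent libraries (29.5, 57.5 and 83.1), and −0.61 kb in 6 of 7 (40.0, 68.6 and 89.4), all but 2iLIF B9.

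In DP cells the 3 regions were seen in part. At −42.5 kb only DP A1 had a peak (31.7). At −1.83 kb DP A (4.59) and DP A1 (0.056) had weak peaks, both below every pluripotent library by percentile, while by rank (4218th and 5295th) they stood within the 3064th to 6406th of the pluripotent libraries. At −0.61 kb DP A (47.8) and DP A1 (23.9) had stronger ones, and at −1.11 kb no DP library had a peak. DP B had no SOX2 peak in the Nodal window. By rank rather than percentile, the −0.61 kb peak stood 2110th in DP A and 3637th in DP A1, within the 1684th to 8130th of the pluripotent libraries. DP A and DP A1 hold only 4859 and 5320 peaks, so no peak of theirs could rank below either range. Ranks therefore could not show the DP peaks at −1.83 and −0.61 kb to be weaker.

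Tdgf1, the co-receptor, had 1 SOX2 region in all 7 pluripotent libraries, at −1.40 kb, between Tdgf1 and Lrrc2. Its site at −1.47 kb had peak percentiles of 53.9 and 63.4 in 2iLIF (B12, B9), 90.8 and 95.4 in NACL (B12, B9) and 87.4, 92.6 and 77.4 in SOX2+ (A, A1, B). Both 2iLIF libraries were the lowest of the 7. DP A (36.6) and DP A1 (31.7) had a peak at the same position, below all 7 pluripotent libraries by percentile. By rank they stood 2536th and 3219th and the pluripotent libraries 1325th to 4558th, so by rank the groups overlapped. DP A and DP A1 hold only 4859 and 5320 peaks, which leaves little room for a rank below that range. DP B had no peak in the window.

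The SOX2 region of Lefty1 at −10.1 kb (chr1:180924508-180925296), between genes, had a peak in all 7 pluripotent libraries and in no DP library. Its peak percentiles were 34.3 and 84.6 in 2iLIF (B12, B9), 58.4 and 94.1 in NACL (B12, B9) and 24.7, 51.0 and 11.9 in SOX2+ (A, A1, B). The media overlapped, and both clone B9 libraries were the highest. The Lefty2 region at −4.19 kb (chr1:180888531-180889297) had a SOX2 peak in 6 of 7 pluripotent libraries, all but SOX2+ B, at 0.70 to 5.48 in 5 libraries and 73.8 in NACL B9. Another region, at −1.08 kb of Lefty1 (chr1:180933811-180934078), had SOX2 in both NACL libraries (28.0 in B12 and 69.7 in B9) and SOX2+ A1 (33.3), and GATA6 in nEnd B9 (49.2). No 2iLIF library had a peak there.

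The SOX2 regions of Smad7 were seen in fewer libraries. At −22.3 kb (chr18:75344895-75345569) SOX2 was present in both 2iLIF libraries (28.7 in B12 and 28.7 in B9), both NACL libraries (37.3 and 55.8) and SOX2+ A1 (12.2). At −6.62 kb it was present in 1 of 2 2iLIF and both NACL libraries, and at 74.5 kb, in an intron of Ctif, in both NACL (37.3 in B12 and 84.4 in B9) and 2 SOX2+ libraries (77.7 in A and 57.5 in A1). No DP library had a SOX2 peak in the Smad7 window.

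To ask whether SOX2 at these genes differed between DP and pluripotent cells, the window percentiles were compared, and a gene was called when every library of 1 group lay above every library of the other. Lefty1 and Lefty2 were called lower in DP, with 0 in all 3 DP libraries and 69.9 ± 15.1 (SD, n = 7; 51.7 to 90.1) in the pluripotent libraries. Because the −10.1 kb region lies in both windows and gave the strongest peak of both, these are 1 observation and not 2. Their exact permutation p was 0.0167, the smallest that 3 against 7 libraries can give, and 0.127 after Benjamini-Hochberg adjustment over 17442 windows. By this exact permutation test 0 windows passed 0.05 after adjustment and 2613 before it. Of all windows, 11.2% were called lower and 1.93% higher, and the median difference was −22.4. Nodal (54.8 ± 47.5 in DP, n = 3, against 85.1 ± 5.93, n = 7), Tdgf1 (53.9 ± 46.7 against 86.1 ± 6.00) and Smad7 (0 against 62.7 ± 29.2) overlapped between the groups. Without SOX2+ B, which had no peak at Smad7, Smad7 was also called lower and the count became 3, against 13.5% of windows called lower. As a share of peaks, Nodal and Tdgf1 were higher in DP, by 0.36 and 0.32 per 10000, and were not called.

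The Lefty call did not survive equal peak numbers, nor windows of 10 kb, which gave 0 calls, against 4.47% and 8.77% of windows called lower. When DP B was set aside and the 4859 strongest peaks of each remaining library were kept, the −10.1 kb peak remained in 2iLIF B9 and NACL B9 and was lost from the other 5 pluripotent libraries, and 0 of the 5 genes were called, against 8.43% of windows called lower. Under the same setting Nodal kept 2 or 3 SOX2 peaks and Tdgf1 1 in all 9 libraries, DP A and DP A1 included. The absence of SOX2 from the Lefty windows in DP cells and the smaller number of DP peaks cannot be told apart. Over the genome, 36.5% of the 4902 SOX2 regions common to the 7 pluripotent libraries had no DP peak and 45.8% had one in at least 2 DP libraries. Of the 5 such regions at these loci, 1 had none and 3 had at least 2.

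Against SOX2+ cells alone, sorted from the same culture, DP cells were called lower at Nodal, Lefty1, Lefty2 and Tdgf1 (4 of 5), with 28.3% of 15015 windows called lower, 3.09% called higher and a median difference of −29.6. At Nodal the SOX2+ values were 89.0, 84.6 and 87.3 (A, A1, B) and the DP values 84.6, 79.9 and 0, so the lowest SOX2+ and the highest DP library were equal to 3 digits. At Tdgf1 they were 87.5, 89.9 and 86.3 against 81.8, 79.9 and 0. At the Lefty genes they were 51.7, 56.2 and 61.1 against 0 in each. With 3 against 3 libraries the exact permutation p cannot go below 0.1. With equal peak numbers and without DP B, 2 genes were called (Nodal and Tdgf1, lower), against 22% of windows called lower, and with all 3 DP libraries cut to 1378 peaks, 0, against 16%. As a share of each library's peaks, the Nodal and Tdgf1 windows were higher in DP, by 0.22 and 0.47 peaks per 10000 peaks, so their direction flips on that scale and the calls were 2, the Lefty genes, against 22.1% of windows called lower. With windows of 10 kb 1 call remained, Tdgf1, against 25.9%. Without SOX2+ B, Smad7 was called too, which made 5, against 43.3%.

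Activin A is present in NACL and absent from 2iLIF, and SOX2 was compared between them. Tdgf1 was called higher in NACL (90.8 and 92.0 against 80.1 and 75.8, B12 and B9) and so was Smad7 (77.2 and 87.1 against 72.1 and 62.7, though as a share of peaks its direction flips, to −0.027 per 10000), whereas Nodal was called lower (77.2 and 76.7 against 91.6 and 88.9). The strongest SOX2 peak in 2iLIF was the distant one at −42.5 kb. When windows were cut to 10 kb, which leaves that peak out, Nodal was higher in NACL by 0.83, so its direction rests on the −42.5 kb region. Over 16326 windows 28% were called higher and 15.7% lower, and 2 against 2 libraries cannot give an exact permutation p below 0.333. Counted without NACL B12 or without NACL B9 the calls were 5 each, and the Lefty genes were higher without the first and lower without the second, when 57% and 45.8% of windows were called higher and 21.9% and 26.9% lower. By total signal (column 4) Tdgf1 alone was called, against 29.9% of windows called higher and 15.9% lower. By share of peaks 0 genes were called, against 20.8% and 21.8%.

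**Figure D2:**
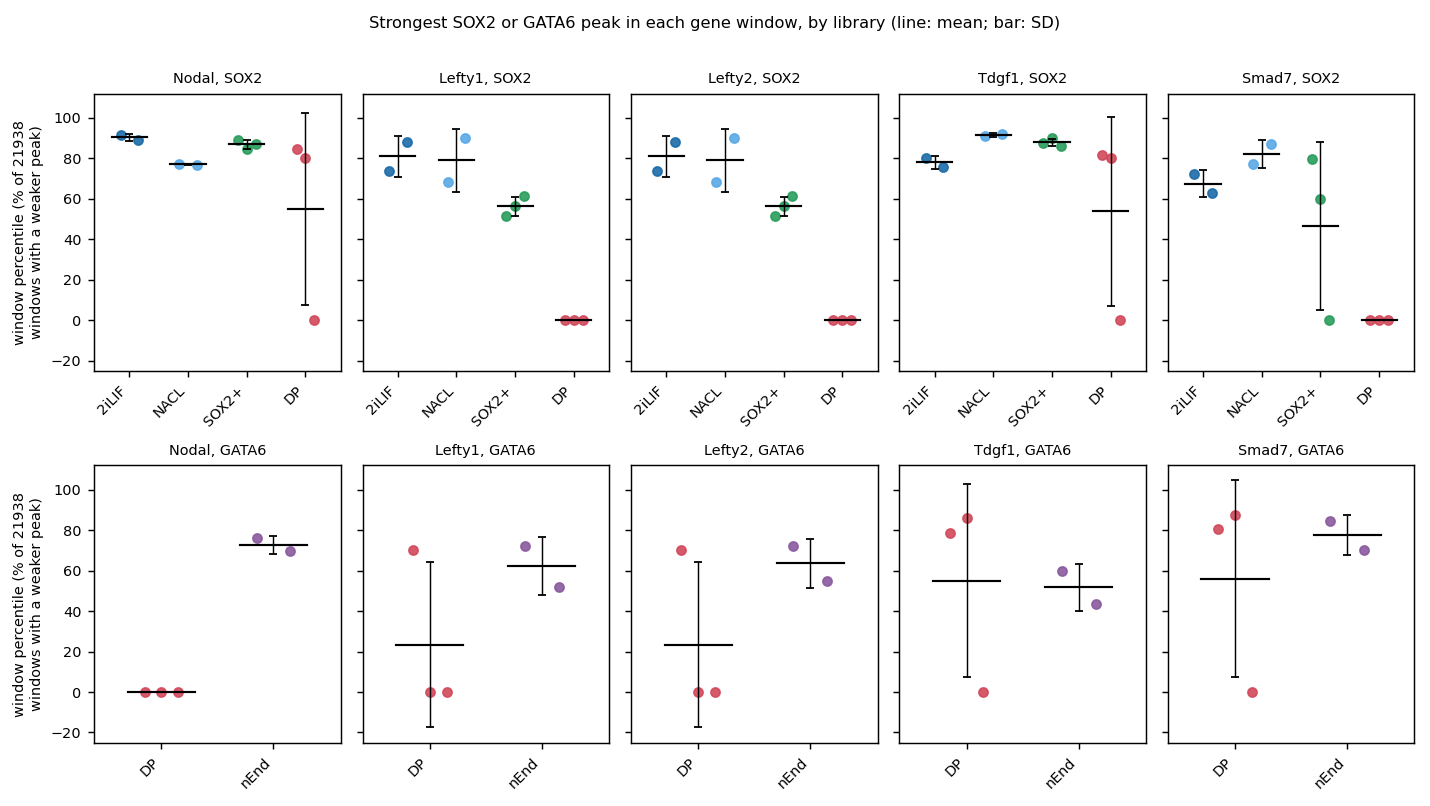
Window percentile (0 to 100, in % of 21938 windows with a weaker peak) of SOX2, upper row, and GATA6, lower row, in each of the 5 genes. Each dot is 1 library, lines are group means and bars are SD. DP libraries lie at 0 for SOX2 at Lefty1, Lefty2 and Smad7, while DP A and DP A1 lie near the pluripotent libraries at Nodal and Tdgf1.

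GATA6 in nEnd was found away from the gene starts. At Nodal the 3 GATA6 regions, at 22.7, 31.0 and 33.7 kb, all lie in introns of Eif4ebp2, and the strongest site, at 31.0 kb, had peak percentiles of 86.8 (B12) and 76.4 (B9). No DP GATA6 library had a peak in the Nodal window. Around the Lefty genes the 4 regions of nEnd lay at −42.1 kb of Lefty2 (the start of Sde2), −8.94 kb of Lefty2, −31.9 kb of Lefty1 and 17.6 kb of Lefty1 (an intron of Tmem63a), with percentiles of 30.5 to 71.3. None of these nEnd regions held a SOX2 peak. Both factors did meet in a region at 34.9 kb of Nodal that was not kept, with GATA6 in nEnd B12 (17.4) and SOX2 in NACL B9 (24.95) and SOX2+ A1 (51.0), and at −1.08 kb of Lefty1.

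Smad7 carried 10 GATA6 regions in nEnd, 5 of them inside the gene. The strongest in B12 was at −36.5 kb (chr18:75330807-75331211), with 92.6 in B12 and 64.3 in B9, followed by 18.8 kb, in an intron, with 87.2 and 77.1. The −36.5 kb region also had GATA6 in DP A (62.7) and DP A1 (52.1). It was the only one of the 19 nEnd regions at these loci with GATA6 in at least 2 DP libraries, against 11.2% of 19725 nEnd regions of the genome, and 17 of the 19 had no DP peak, against 79.6%. At −22.3 kb the GATA6 peaks of nEnd (63.6 in B12 and 0.33 in B9) and the SOX2 peaks of pluripotent cells had the same median position of maximum signal, −22.4 kb. It was the only nEnd GATA6 region at these loci with a SOX2 peak in any library, 1 of 19 against 19.3% of the genome's.

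At Tdgf1 GATA6 was present in DP A (57.4), DP A1 (45.9) and nEnd B12 (65.1) at −33.5 kb (chr9:110979500-110979827), over an exon of Lrrc2, and no H3K27ac or H3K4me1 library had a peak there. The nEnd regions at 8.20 and −5.44 kb were weak, at 20.3 to 37.9.

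Between nEnd and DP, 1 of 5 genes was called: Nodal, higher in nEnd (76.0 in B12 and 69.6 in B9 against 0 in all 3 DP libraries). Over 16821 windows 47.1% were called higher in nEnd and 6.65% lower, with a median difference of 36.2, against which 1 of 5 is the count. At Smad7 the values were 84.5 and 70.4 in nEnd and 80.6, 87.5 and 0 in DP (A, A1, B). At Tdgf1 they were 59.9 and 43.6 against 78.6, 86.2 and 0. Lefty1 had 72.2 and 52.1 against 70.4, 0 and 0. Lefty2 had 72.2 and 54.9 against 70.4, 0 and 0. The exact permutation p cannot go below 0.2 with these numbers. With windows of 10 kb the count was 4, all higher in nEnd (all but Nodal, whose GATA6 regions lie farther off), against 47.6% of windows, and Tdgf1 thereby turned from lower to higher in nEnd, and by share of peaks 3 (Nodal, Lefty1 and Smad7), against 44.8%. The count was 3 without nEnd B9, which leaves 1 nEnd library, or without DP A (the Lefty genes were added), when 59.8% and 61.9% of windows were called higher. It was 2 without DP B, when Tdgf1 was lower in nEnd, against 15.9% of windows lower. With equal peak numbers and all 3 DP libraries, 0 genes were called, against 20.9% of windows called higher and 19% lower. With equal peak numbers and without DP B 1 was called, which was then Tdgf1, lower in nEnd, against 26.7% of windows called higher and 26.8% lower.

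To ask whether SOX2 and GATA6 met on the same elements in DP cells, regions of SOX2 in at least 2 DP libraries were overlapped with regions of GATA6 in at least 2. There were 984 such co-bound regions in the genome, from 3588 SOX2 and 3484 GATA6 regions, and 6.63% of the 21938 windows held at least 1. None lay in the windows of the 5 genes, where 3 DP SOX2 regions (2 at Nodal, 1 at Tdgf1) and 2 DP GATA6 regions (1 at Tdgf1, 1 at Smad7) were found. At Tdgf1 both factors were present in DP cells but in different regions, SOX2 at −1.40 kb and GATA6 at −33.5 kb. At a background of 6.63%, 0 of 5 windows is not a depletion that these data can show.

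H3K27ac marked the starts of Nodal, Tdgf1 and Smad7 in all 4 naive libraries, and in nEnd the mark was found over the start of Smad7 and not over Nodal or Tdgf1. At the Nodal start the peaks were 7.49 to 7.83 kb wide in naive media (peak percentiles 93.6 to 98.7), 3.80 and 2.05 kb in SOX2+ (A 79.2, B 84.3) and 3.33 kb in the DP library (92.1). At the Tdgf1 start they were 12.9 to 14.4 kb in naive media (97.5 to 99.3), 10.2 and 9.46 kb in SOX2+ (A 95.1, B 93.4) and 3.41 kb in the DP library (99.4). Neither nEnd library had a peak over either start. Of 7240 genes with H3K27ac over the start in all 4 naive libraries, 14.5% had none in both nEnd libraries; of the 3 such genes here, Nodal and Tdgf1 were 2. With equal peak numbers in every library the same 2 genes were found against 6.54% of genes. When a peak within 1 kb was accepted, Lefty1 and Lefty2 joined Nodal, against 20.8% of genes, and Tdgf1 dropped out because nEnd B9 had a peak within 1 kb of its start. Without 2iLIF B12, Lefty2 was added and the count became 3 of 4, against 16.6% of 7960 genes.

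The gap in nEnd H3K27ac at Nodal was wide. In both nEnd libraries H3K27ac covered 0 kb of the 50 kb upstream of Nodal and 0 kb of its body, against 23.7 to 31.2 kb and 4.38 to 5.51 kb in naive media. Downstream, nEnd H3K27ac covered 20.01 kb (B12) and 10.8 kb (B9), over Eif4ebp2, where the 3 GATA6 regions lie. Naive media covered more there, 24.3 to 31.8 kb, and every naive library had H3K27ac at each of these 3 regions. At the GATA6 region at 22.7 kb nEnd B12 had H3K27ac and nEnd B9 did not. In both nEnd libraries the whole 28.4 kb body of Smad7 was covered, by single peaks of 37.7 kb (B12) and 36.8 kb (B9), against 20.9 to 24.9 kb in naive media, where the peaks over the start were 4.69 to 12.9 kb wide. SOX2+ peaks over the Smad7 start were narrower, at 2.22 kb (A, percentile 0.87) and 1.47 kb (B, 47.9), and the DP library had none over the start, its nearest having its maximum at −0.59 kb. Peaks of nEnd are wider throughout the genome, as given above, and their part in the coverage of Smad7 was not tested. They are also fewer, and cover 175 Mb (B12) and 137 Mb (B9) of the genome, against 359 to 588 Mb in naive media. The part of these differences in the gap at Nodal was not tested.

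**Figure D3:**
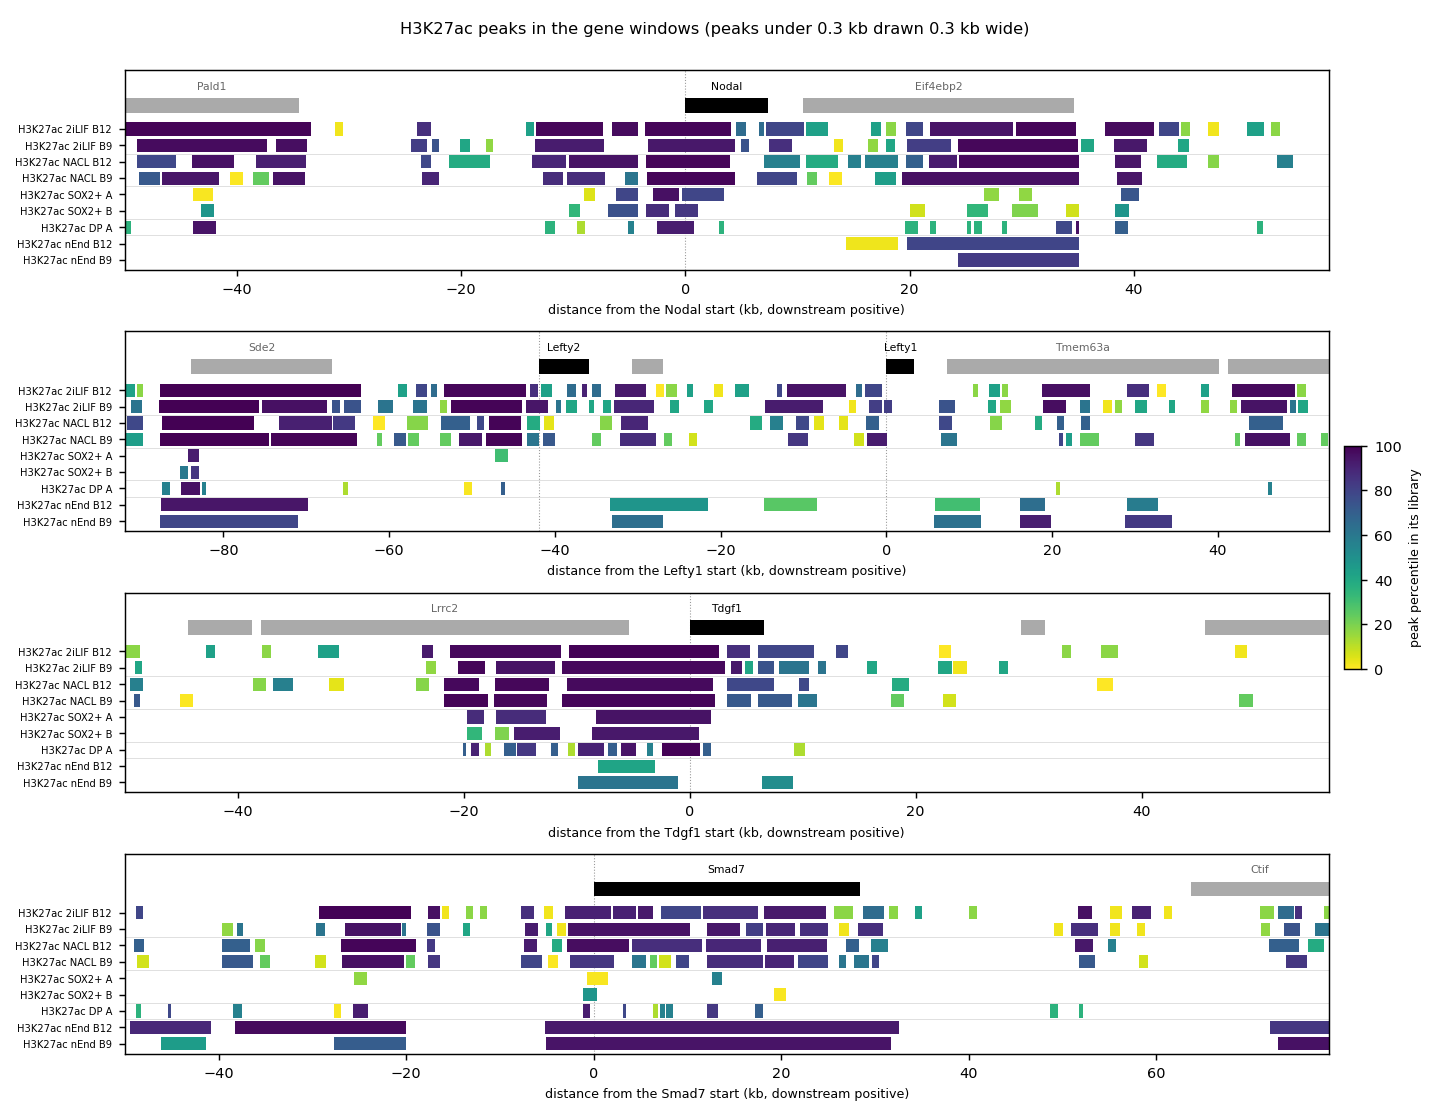
H3K27ac peaks in the same windows, 1 library per line. The x axis is the distance from the gene's start in kb, positive in the direction of transcription, and the colour is the peak percentile (0 to 100). Both nEnd libraries are empty from the left edge of the Nodal window through the gene, and both carry 1 peak across the whole of Smad7.

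The Lefty starts carried H3K27ac in some naive libraries only. Lefty1 had it in 2iLIF B9 (81.8) and NACL B9 (92.5), and Lefty2 in 2iLIF B9 (94.5), NACL B12 (38.8) and NACL B9 (61.0). No SOX2+, DP or nEnd library had H3K27ac over either start. Of all genes, 44.1 to 52.4% had H3K27ac over the start in naive libraries. The share was 15.6% (A) and 14.1% (B) in SOX2+, 28.1% in DP and 37.7% (B12) and 38.1% (B9) in nEnd. At the SOX2 region at −10.1 kb of Lefty1, H3K27ac was present in all 4 naive libraries (78.2 to 94.7) and in nEnd B12 (25.8), and absent from both SOX2+ libraries and the DP library, although all 3 SOX2+ libraries had SOX2 there. The SOX2+ and DP libraries of H3K27ac hold fewer peaks than the naive ones, as given above. The part of peak number in these absences was not tested. H3K4me1 was present at the same region in all 9 libraries with a group, at 30.9 to 99.5.

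H3K27ac was also present at the Nodal regions at −42.5, −1.83 and −0.90 kb in all 4 naive, both SOX2+ and the DP library and in no nEnd library. H3K4me1 at −42.5 kb was present in all 9 libraries, nEnd included (95.5 and 21.1). Over the gene starts H3K4me1 divided differently. It lay over the Lefty1 start in all 4 naive, both SOX2+ and the DP library (63.7 to 99.5) and in neither nEnd library, over the Lefty2 start in all 9 (2.904 to 99.7), over the Tdgf1 start in both SOX2+, the DP and 1 nEnd library, over the Nodal start in SOX2+ B (99.2) and DP (78.7), and over the Smad7 start in none. Of all genes, 2.73 to 9.03% had H3K4me1 over the start in naive libraries and 2.46 and 7.26% in nEnd. The share was 17.5 and 18.5% in SOX2+ and 37.5% in DP, so the groups differed over the genome as well.

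Window percentiles of H3K27ac were compared between nEnd and the 4 naive libraries. Smad7 was called higher in nEnd (93.9 in B12 and 89.8 in B9 against 42.2 to 74.4), and Tdgf1 lower (37.4 and 48.7 against 65.2 to 79.0). Lefty2 was called lower (86.9 and 64.3 against 96.3 to 99.7), but its strongest peak lay at the start of Sde2, −41411 to −41586 bp from the Lefty2 start, in all 6 libraries. Nodal (63.3 and 68.6 against 65.0 to 72.2) and Lefty1 (48.8 and 81.7 against 54.8 to 80.6) overlapped. The Nodal windows overlapped because the strongest nEnd peak was the one over Eif4ebp2, at 33.6 and 33.7 kb, and with windows of 10 kb Nodal was called lower by 51.6 points (−51.6). Over 21291 windows 20.3% were called higher and 37.6% lower, so 1 and 2 of 5 are near the background, and the exact permutation p cannot go below 0.133 with 2 against 4. Without nEnd B9, which leaves 1 nEnd library, and also by total signal, all 5 genes were called, Smad7 higher and the other 4 lower, against 26.6% and 23.7% of windows called higher and 44.3% and 40.9% lower. Without nEnd B12 instead, Lefty1 and Nodal turned to higher in nEnd, by 9.04 and 1.08 points. As a share of the library's peaks, Lefty1, Lefty2 and Tdgf1 were higher in nEnd, by 1.30, 0.81 and 0.21 peaks per 10000, so the direction of all 3 flips on that scale, and the Lefty genes were called, against 50.9% of windows called higher and 26.6% lower.

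H3K4me1 moved in the same directions at Tdgf1 and Smad7. Smad7 was called higher in nEnd (95.7 and 98.7 against 84.8 to 95.2), and Nodal (86.6 and 66.7 against 86.8 to 99.2) and Tdgf1 (39.6 and 64.5 against 83.2 to 94.6) lower. By total signal only the Tdgf1 call remained, and by share of peaks none of the 3 did, with the Smad7 direction flipped (−0.65 per 10000). In these settings 21% and 21.4% of windows were called higher and 20.4% and 12.8% lower. Lefty1 and Lefty2 overlapped, at 93.0 and 88.8 in nEnd and 46.7 to 99.2 in naive media. Over 19159 windows 21.3% were called higher and 18.1% lower.

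Between NACL and 2iLIF, H3K27ac separated 0 of 5 genes, against 23% of 21290 windows called higher and 20.2% lower. With clone B9 compared with B9 and B12 with B12, Nodal and Lefty1 were higher in NACL in both clones, by 2.29 and 11.4 points on average, which made 2 calls, against 31.7% of windows higher and 27.6% lower in both clones. The Nodal pair of B12 differed only as 65.2 and 65.0. By total signal 3 genes were called, all lower in NACL (Lefty1, Lefty2 and Smad7), against 21% of windows called lower, and with windows of 10 kb 1, Nodal, higher, against 21.1% called higher. Lefty1, at 11.4 points higher by maximum signal, thus turned its direction by total signal. The count also changed without NACL B12 (4), without NACL B9 (2), without 2iLIF B12 (1) and without 2iLIF B9 (3), when 36.7 to 38% of windows were called higher and 32.5 to 35.3% lower, so it rests on single libraries. For H3K4me1, Nodal (95.2 and 99.2 in NACL against 94.6 and 86.8 in 2iLIF, B12 and B9) and both Lefty genes (89.0 and 99.2 against 46.7 and 86.8) were called higher in NACL, 3 of 5 against 20.1% of 18486 windows called higher and 24.4% lower. The Lefty values again are those of shared peaks. By share of peaks the Nodal call was lost and the Lefty genes, Tdgf1 and Smad7 were called higher, against 25.5% of windows called higher and 16.3% lower. Neither comparison of 2 against 2 libraries can reach an exact permutation p below 0.333.

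**Figure D4:**
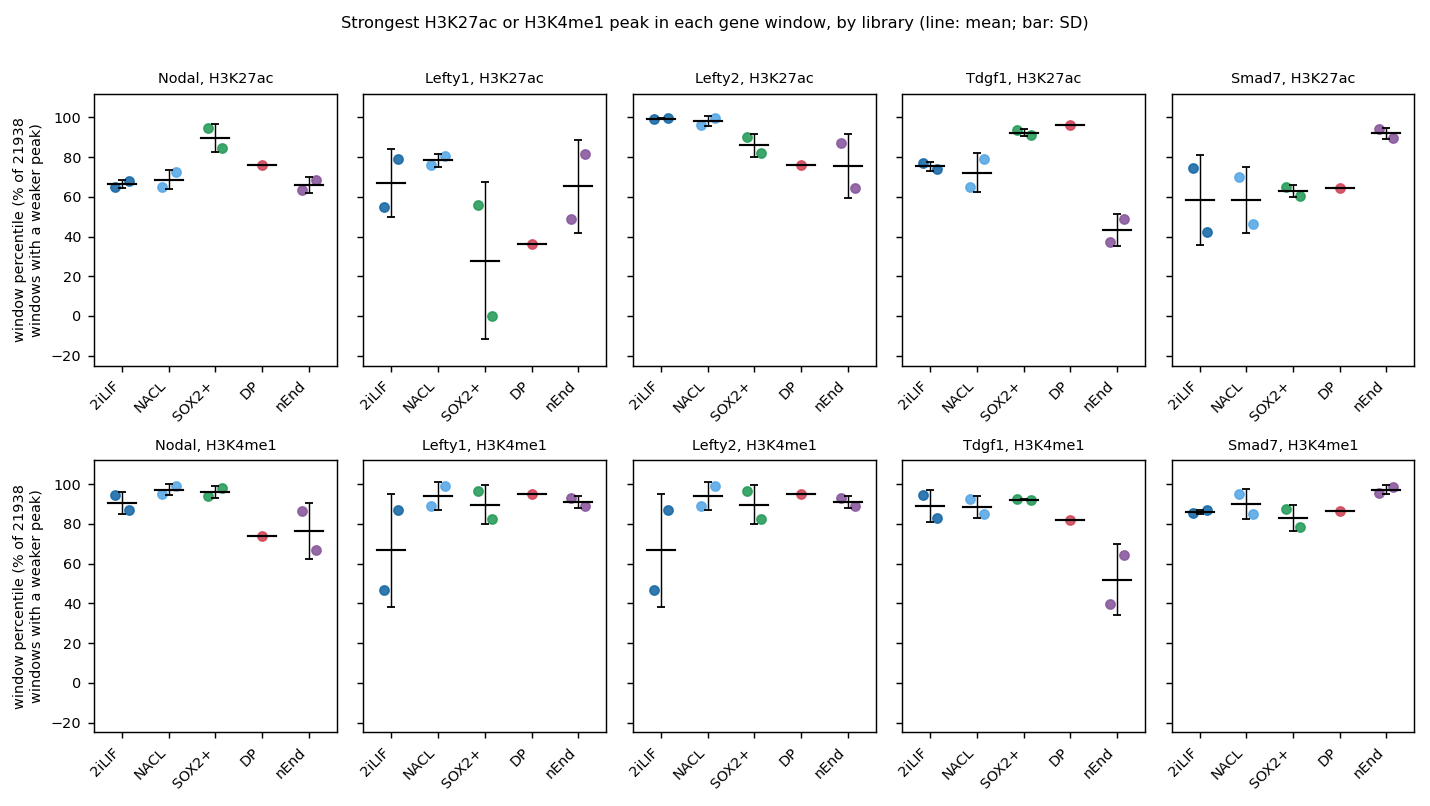
Window percentile (0 to 100, in % of 21938 windows with a weaker peak) of H3K27ac, upper row, and H3K4me1, lower row, in each of the 5 genes. Each dot is 1 library, lines are group means and bars are SD, with a single DP library. In nEnd, Tdgf1 lies below and Smad7 above every naive library for both marks.

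A list of 35 other genes of the Nodal and Activin pathway was read the same way, and each count is set beside the share of all windows called. For SOX2 in DP against pluripotent cells, 1 was higher (Pmepa1, an inhibitor that sequesters SMADs, 97.4 ± 1.77, n = 3, against 57.7 ± 26.2, n = 7) and 1 lower (Fst, which binds Activin, 0 against 64.5 ± 15.9), each with an exact permutation p of 0.0167 and an adjusted p of 0.127, against 1.93% and 11.2% of windows. The list's median difference was −7.54 against −22.4 over all windows. Pmepa1 was also the 1 gene higher in DP than in SOX2+, while 9 were lower, led by Gsc, Smad6, Furin and Skil (windows 3.09% and 28.3%). Between NACL and 2iLIF, SOX2 was higher at 9 genes (Cer1, Pcsk6, Smad2 and Gsc first) and lower at 4 (Dand5, Cfc1, Acvr1b and Tgif1), against 28% and 15.7% of windows.

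GATA6 was higher in nEnd than in DP at 11 of the 35 genes, led by Foxa2, an endoderm transcription factor (99.5 ± 0.06, n = 2, against 0, n = 3), the receptor gene Tgfbr1, the ligand gene Tgfb2 and the ubiquitin ligase gene Smurf2, and lower at 5, of which Skil, Gsc, Pcsk6 and Smad3 were first (windows 47.1% and 6.65%). H3K27ac was higher in nEnd than in naive media at 14, led by Foxa2 (97.8 ± 0.07, n = 2, against 12.1 ± 8.30, n = 4), Smad2, Eomes and Tgfbr2, and lower at 11, led by the ligand genes Gdf3 (0 against 93.7 ± 3.89), Inhbb and Tgfb2 and by Mixl1 (windows 20.3% and 37.6%). Of the 6 ligand genes Gdf1 was higher (79.3 ± 12.5 against 51.8 ± 10.1), Gdf3, Inhba, Inhbb and Tgfb2 were lower and Tgfb1 overlapped, and of the 6 receptor genes Tgfbr2 was higher, Acvr1c and Acvr2a were lower and 3 overlapped. H3K4me1 was higher at 13 (Tgfbr1, Smad2 and Acvr2a among them) and lower at 3 (Inhbb, Gsc and Fst), against 21.3% and 18.1% of windows. Between NACL and 2iLIF, H3K27ac was higher at 10 (Acvr2b, Gdf1 and Lhx1 among them) and lower at 8 (Acvr1b, Eomes, Tgfbr2 and Acvr2a), against 23% and 20.2% of windows, and H3K4me1 was higher at 12 (Foxh1, Skil, Smad2 and Dand5) and lower at 7 (Cfc1, Smad4, Acvr2b and Gdf3), against 20.1% and 24.4%. The median difference of the list and of all windows was 38.5 and 36.2 for GATA6 in nEnd against DP, 6.08 and −5.59 for H3K27ac and 12.1 and −0.78 for H3K4me1 in nEnd against naive media.

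Over the 33 libraries, the genes whose window percentiles ran most like those of each gene were Nudcd3 (Pearson r 0.945), Drc3 (0.939) and Tpd52 (0.938) for Nodal, 2310039H08Rik (0.932), Rpl7l1 (0.932) and Msi2 (0.931) for Tdgf1, Serinc1 (0.844), Sigirr (0.843) and Asic1 (0.839) for Lefty1, Map7 (0.914), Ampd1 (0.912) and Nfe2l2 (0.910) for Lefty2, and Elf3 (0.884), Rnpep (0.879) and Agpat3 (0.872) for Smad7. The libraries span 4 antibodies and differ in peak number, which these values do not separate from the genes' own patterns, and they are given as a description. Among the 5 genes themselves the highest was 0.827, between the Lefty genes, whose windows overlap, then 0.634 between Lefty1 and Smad7, 0.627 between Lefty2 and Smad7 and 0.588 between Nodal and Tdgf1.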

How the data were processed

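The authors deposited 1 SEACR peak list per CUT&RUN library. Per the labels, reads were trimmed with cutadapt 1.18, aligned to mm10 with Bowtie2 2.3.4.1 and handled with SAMtools 1.9, Picard 2.9.1, bedtools 2.27.1 and deepTools 3.2.0; no version of SEACR is stated in these sources. The methods and the deposited lists name opposite SEACR modes for factors and histone marks, so thresholds may differ between them. In the deposited lists, column 4 is total signal and column 5 maximum signal in whole numbers, with coverage scales that differ by library. The 18 IgG samples served as the authors' controls and were not used.

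Gene windows came from GENCODE M21 (autosomes and chromosomes X and Y). For each of 21938 windows and each library, the strongest column 5 value was ranked over windows (Python 3.11.15, numpy 2.4.6, pandas 2.3.3). Groups were called when they did not overlap; exact two-sided permutation tests over libraries used Benjamini-Hochberg adjustment over all windows with a peak. SOX2 and GATA6 peaks overlapping by at least 1 bp were merged. Scripts were tested on simulated data. All 5 genes are named in each comparison, with up to 4 pathway genes per direction ordered by difference, and the 3 most alike genes. The genes, lists and strings were chosen with earlier results of these data known. Labels do not say whether libraries of a group are separate cultures, so their spread may be technical. Clones pair NACL with 2iLIF (same clone; deviations correlated at 0.135, 0.171 and 0.126 for SOX2, H3K27ac and H3K4me1). Alternatives were 10 kb flanks, column 4, shares of peaks, equal peak numbers, each replicate left out and the clone as a replicate block; equal numbers without DP library B, and the H3K27ac start-site alternatives, were chosen after seeing the data. The H3K27ac and H3K4me1 libraries of KOSR replicate B that have a title that names DP and a source name that names SOX2+ entered no comparison. Some genes and sequences at these loci are not reported here.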

Additional observations from a re-analysis of the deposited data

Results flagged for a closer look

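The H3K27ac and H3K4me1 libraries of KOSR replicate B whose labels name both sorted populations entered no comparison but held peaks over the gene starts. H3K4me1 lay over the starts of Nodal (peak percentile 64.4, 3.77 kb wide), Lefty1 (95.7, 5.47 kb) and Tdgf1 (22.9, 1.30 kb). H3K27ac lay over the start of Tdgf1 (67.1, 5.75 kb), and not over that of Nodal, where its peak at 90.3 covered the SOX2 regions at −1.83 and −0.90 kb. Over all 21938 genes, 16.6% had an H3K4me1 peak and 15.2% an H3K27ac peak over the start in these libraries. This H3K27ac library had no peak in the Lefty1 window.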

How the results depend on the processing

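Counts are of the 5 genes called. For SOX2 in DP against pluripotent cells (2), 0 were called with 10 kb flanks, with equal peak numbers, and with equal numbers without DP B, and 2 to 3 with replicates left out. For DP against SOX2+ (4), 1 was called with 10 kb flanks, 2 by share of peaks, 0 with equal numbers, 2 with equal numbers without DP B, and 4 to 5 with replicates left out. For SOX2 in NACL against 2iLIF (3), column 4 gave 1, share of peaks 0 and left-out replicates 3 to 5. For GATA6 in nEnd against DP (1), 10 kb flanks gave 4, share 3, equal numbers 0 and left-out replicates 1 to 3. For H3K27ac in nEnd against naive media (3), column 4 gave 5 and left-out replicates 3 to 5. For H3K4me1 (3), column 4 gave 1 and share 0. For H3K27ac in NACL against 2iLIF (0), 10 kb flanks gave 1, column 4 gave 3, left-out replicates 1 to 4 and the clone as a replicate block 2; in the other comparisons a block moved no count of calls beyond 1.5 times. DP and SOX2+ libraries share the names A, A1 and B, and the main comparison did not pair them. Their deviations correlated at 0.031, −0.023 and −0.039, which cannot show whether the libraries are paired. With the shared name as a block, 4 genes were called there. H3K27ac start sites lost in nEnd (2) numbered 2 to 3. A gene's difference changed sign, with a call before or after, in 21 values. By share of peaks per 10000 these were Nodal (0.22) and Tdgf1 (0.47) in DP against SOX2+, Smad7 in SOX2 NACL against 2iLIF (−0.027), Lefty1 (1.30), Lefty2 (0.81) and Tdgf1 (0.21) for H3K27ac and Smad7 (−0.65) for H3K4me1 in nEnd, and Tdgf1 for H3K4me1 in NACL (0.80). With 10 kb flanks they were Nodal (0.83) and Lefty1 (90.4) in SOX2 NACL against 2iLIF and Tdgf1 for GATA6 in nEnd (66.4), and by column 4 Lefty1 (−13.8) and Smad7 (−7.34) for H3K27ac in NACL. With replicates left out they were Lefty1 and Lefty2 in SOX2 NACL against 2iLIF (−12.9 to 9.14 both), Lefty1 for H3K27ac in nEnd (−23.9 to 9.04), Lefty2 (−3.07 to 0.34), Tdgf1 (−10.3 to 3.54) and Smad7 (−16.1 to 16.1) for H3K27ac in NACL, and Tdgf1 (−6.03 to 5.38) and Smad7 (−1.35 to 9.08) for H3K4me1 in NACL. A further 29 values changed sign with no call in either setting. The 30 bound regions became 15 with only peaks above each library's median, 52 with a peak in any library, 17 with 10 kb flanks and 13 to 31 with libraries left out (13 without nEnd GATA6 B12 or B9). Without either of these no region can be kept through nEnd GATA6, so that fall follows from the rule for keeping regions. Co-bound regions stayed at 0 at the loci in every setting run; the genome's 984 became 285 to 977 with libraries left out. The cause was not tested. Of 425 single-gene values under an alternative, 339 were called, or not called, as in the report (those 29 included), 35 gained a call in the same direction, 30 lost it and 21 are the reversals above. Read depth is unknown, and peak number limits every absence.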
